A study of Mus musculus with 12 samples.

Results

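Kruppel-like factors (Klf proteins) are transcription factors with 3 zinc fingers at the carboxyl end that bind GC-rich and CACCC sequences in promoters and enhancers. In stratified epithelia Klf4 is known for driving terminal differentiation and barrier formation, and Klf5 for its expression in proliferating basal cells. Several others, such as Klf6 and Klf10, are rapidly induced by growth factors or stress, and Klf9 and Klf15 are known targets of the glucocorticoid receptor. The 10 genes described here are Klf2, Klf3, Klf4, Klf5, Klf6, Klf7, Klf9, Klf10, Klf13 and Klf15, taken by their symbols from a table of 23420 genes. All 10 were found in it, and all 10 passed the filter on low counts that left 11719 genes for testing.

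The libraries came from basal keratinocytes of the hard palate of 6 FVB mice. Every mouse was K5-tTA (+/-); tetO-H2B-GFP (+/-), so that keratin 5-expressing cells make a green histone until doxycycline stops it, and every mouse was chased with doxycycline for 14 days. From each mouse, CD49f-positive cells were sorted into GFP-HI cells, labelled infrequently dividing, and GFP-LO cells, labelled frequently dividing. Mice B1M, B3M, B4M, B5M and B7M were 49 days old and mouse B7F was 71 days old. The label is made only where the keratin 5 promoter was active before the chase. Each library came from a pool of 200 to 1000 cells of 1 animal, and in such bulk RNA fewer cells of a type and less RNA per cell cannot be told apart.

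Libraries held 6678444 to 10547665 counts, of which Rn45s, the ribosomal RNA precursor gene, took 31.5% to 59.8%. The number of genes detected was lowest in B1M GFP-HI (12312) and B3M GFP-HI (12810), and reached 19023 elsewhere. Basal markers were high in both fractions: Krt14 averaged 10198 CPM (counts scaled to a common library size) in GFP-HI cells and 10977 CPM in GFP-LO cells, and the summed 13 basal markers lay between 16630 and 26354 CPM in every library. Of these 13 markers edgeR called 0 between the fractions, with 2 at an unadjusted p under 0.05, while limma-voom called 1 and DESeq2 called 0. Endothelial markers summed to 0 to 6.31 CPM and leukocyte markers to 0.251 to 28.7 CPM. The endothelial marker Emcn was at 0 counts in all 12 libraries, which allows up to 0.258 to 0.433 CPM (3 counts, counting error only). Of the fibroblast markers, Dcn averaged 327 and 456 CPM and was lower in GFP-HI (log2 fold change −0.49, edgeR adjusted p = 0.0031), while the collagen gene Col1a1 averaged 2.88 and 0.878 CPM.

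The RefSeq promoter table (GRCm38.p6) held 8 of the 10 genes: Klf2, Klf3, Klf4, Klf6, Klf7, Klf9, Klf13 and Klf15. The stretches below lie upstream of the RefSeq start. They are shown for the 3 genes whose levels varied most between mice among those called (Klf4, Klf6 and Klf9). Klf15 is added because its levels correlated negatively with those of the other members, and Klf2 because its promoter holds a MEF2 element. Capitals mark GC boxes, the CACCC box, E boxes, the CCAAT box and the MEF2 element, on either strand. Each is read 5′ to 3′ on the strand of its gene.
Klf4, chr4:55532565-55532710, minus strand: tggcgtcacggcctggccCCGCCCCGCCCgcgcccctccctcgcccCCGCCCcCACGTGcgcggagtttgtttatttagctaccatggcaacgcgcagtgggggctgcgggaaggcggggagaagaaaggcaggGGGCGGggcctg
Klf6, chr13:5861254-5861459, plus strand: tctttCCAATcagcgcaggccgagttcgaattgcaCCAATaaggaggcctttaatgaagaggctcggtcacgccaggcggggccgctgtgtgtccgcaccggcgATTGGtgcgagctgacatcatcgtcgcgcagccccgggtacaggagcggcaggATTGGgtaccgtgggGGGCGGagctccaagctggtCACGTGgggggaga
Klf9, chr19:23141051-23141171, plus strand: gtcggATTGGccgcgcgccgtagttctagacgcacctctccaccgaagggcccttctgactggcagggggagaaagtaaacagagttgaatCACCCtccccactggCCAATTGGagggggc
Klf15, chr6:90462341-90462526, plus strand: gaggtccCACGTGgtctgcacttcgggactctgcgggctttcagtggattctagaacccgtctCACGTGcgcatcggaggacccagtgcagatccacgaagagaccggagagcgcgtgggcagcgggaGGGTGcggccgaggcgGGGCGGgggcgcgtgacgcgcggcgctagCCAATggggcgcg
Klf2, chr8:72318842-72318962, plus strand: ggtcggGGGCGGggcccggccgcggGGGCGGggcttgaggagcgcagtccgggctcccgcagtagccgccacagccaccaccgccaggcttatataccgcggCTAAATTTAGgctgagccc

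Motifs were searched in the 250 bases before the start, on both strands. The GC box GGGCGG, to which Sp and Klf proteins bind, was found in 7 of the 8 Klf promoters (all but Klf9) and in 32.7% of the 32851 promoters in the table. The CACCC box was in 6 of 8, against 52.0% of promoters, and the CCAAT box in 4 of 8, against 33.8%. The E box CACGTG, a sequence bound by the circadian factors Clock and Bmal1 and by Myc and Usf proteins, was in 3 of 8 (Klf4, Klf6 and Klf15), against 6.02% of promoters. Klf15 held it at 2 places. The MEF2 element was in Klf2 alone, against 0.508% of promoters. The AP-1 site TGANTCA was in Klf9 alone, where it overlaps the CACCC box, against 6.75% of promoters. The cAMP response element TGACGTCA, the TATA box TATAAA and the CArG box were in 0 of 8, against 1.55%, 12.4% and 1.47% of promoters. GC content of these 250 bases was 59.2% to 78.4%, with a median over all promoters of 52.4%, and motifs made of G and C are more frequent in such sequence. Letters found in a window are a description and do not show that a protein was bound there.

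The first question was which Klf genes these basal cells expressed, and at what level. Levels are compared between genes as CPM per kilobase of counted exon, with library sizes scaled by TMM, the trimmed mean of M-values. The 10 genes formed 3 tiers. Klf6, Klf4 and Klf5 made the top tier, with means over the 12 libraries of 119, 109 and 102 CPM per kilobase. Klf3, Klf10, Klf9 and Klf13 followed at 28.2, 24.3, 21.1 and 16.0, and Klf15, Klf2 and Klf7 were lowest at 4.09, 3.50 and 2.18. Klf5 was 3.61 times as high as Klf3 and Klf13 was 3.93 times as high as Klf15, and at both steps the higher gene was above the lower one in 12 of 12 libraries with separate ranges. The other 7 of the 9 neighbouring pairs had overlapping ranges, so their order is not resolved by the spread between libraries. The same 2 gaps were seen in the GFP-HI libraries alone and in the GFP-LO libraries alone.

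**Figure D1:**
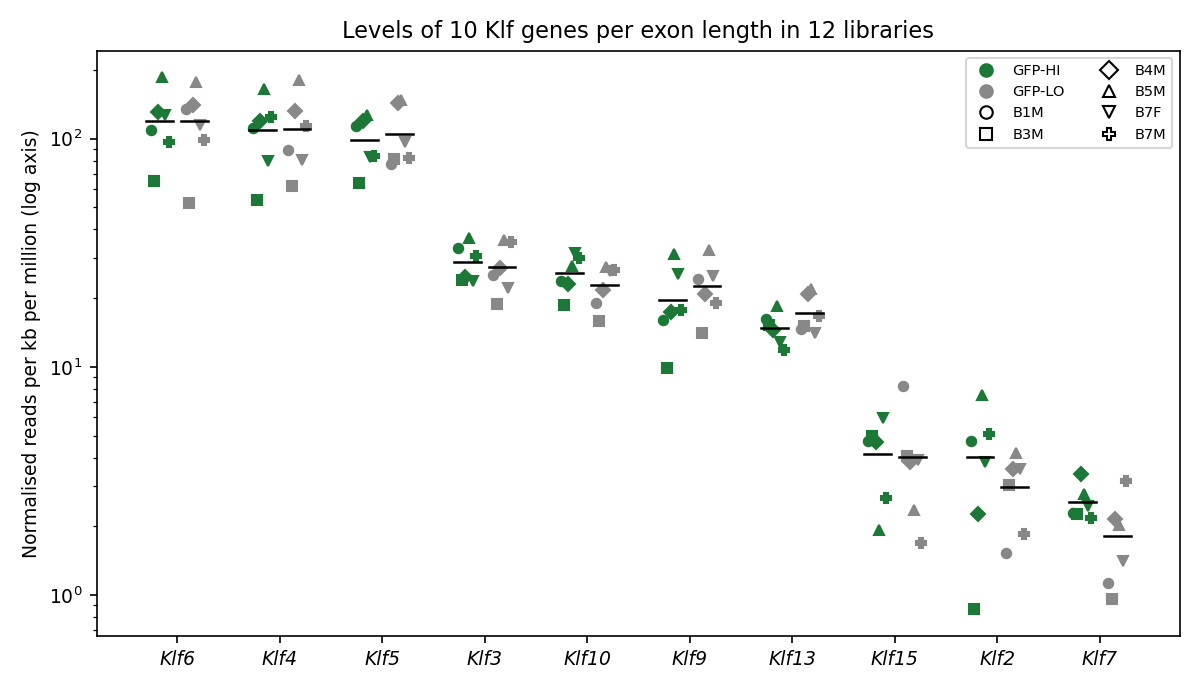
Level of each Klf gene (CPM per kilobase of exon, log axis) in 12 libraries, GFP-HI in green and GFP-LO in grey, with a symbol for each mouse and a black line at the mean of 6. Klf6, Klf4 and Klf5 lie between 52.2 and 186, Klf15, Klf2 and Klf7 reach at most 8.27, and within each gene the green and grey points overlap.

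Against all tested genes the top tier stood high. Klf6 was above 96.8% of tested genes in level per length, Klf4 above 96.6% and Klf5 above 96.4%. Klf3 stood above 88.3%, Klf10 above 86.1%, Klf9 above 83.7% and Klf13 above 77.9%, while Klf15, Klf2 and Klf7 stood above 36.3%, 31.6% and 20.2%. Klf6, Klf4 and Klf5 together made up 75.9% ± 3.63 of the summed level per length of the 10 genes in the GFP-HI libraries, and 76.5% ± 3.11 in the GFP-LO libraries (SD, n = 6). In the 12 libraries that share lay between 70.6% and 80.5%.

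The level per length depends on the exons that were counted. For Klf5 the table counted 1725 bases of exon where GENCODE M21 has 5201, for Klf3 2314 where it has 11243, and for Klf7 1336 where it has 8131. For Klf4 (3044 and 3049) and Klf6 (4217 and 4391) the lengths were close. Exons of no other row in the table overlapped those of a Klf gene. In the files' mm10 coordinates Klf4 lies on chromosome 4 from 55527137 to 55532475, Klf6 on chromosome 13 from 5861489 to 5870393 and Klf5 on chromosome 14 from 99298691 to 99313409.

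The second question was whether Klf levels differed between infrequently and frequently dividing basal cells. None of the 10 genes was called. In edgeR's quasi-likelihood test with mouse as a block, 0 of 10 passed an adjusted p (Benjamini-Hochberg over all genes) under 0.05, where 0.469% of tested genes were called higher in GFP-HI and 0.0597% lower, or 0.529% in either direction. At an unadjusted p under 0.05 there was 1 of 10, Klf9, against 7.24% of all tested genes. DESeq2 and limma-voom also called 0 of 10, and at an unadjusted p under 0.05 both gave 0. Log2 fold changes (GFP-HI over GFP-LO) were positive for 6 genes and negative for 4, with a median of 0.05 against −0.02 over all tested genes, and the sign of Klf6 turned with upper-quartile scaling. Every gene had overlapping ranges in the 2 fractions, but these ranges include the spread between mice. How many of all tested genes overlap in this way was not counted.

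For the highly expressed genes the intervals were narrow. Klf4, the differentiation factor, had a lowest, median and highest level of 53.9, 115 and 165 CPM per kilobase in GFP-HI and of 62.3, 102 and 181 in GFP-LO. The groups overlap almost fully, and the fitted fold was 0.993 with a 95% interval of 0.884 to 1.12 (edgeR adjusted p = 0.99). Klf6, a broadly expressed factor induced by injury and stress, ranged from 65.0 over a median of 118 to 186 in GFP-HI and from 52.2 over 125 to 177 in GFP-LO. Its fold was 1.01 (0.899 to 1.14; edgeR adjusted p = 0.98). A p that misses the threshold does not show equal levels; the bounds say which folds the data leave within the interval.

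Klf5, the factor of proliferating basal cells, ranged from 63.6 over 98.4 to 126 CPM per kilobase in GFP-HI and from 77.8 over 89.7 to 148 in GFP-LO. Its log2 fold change was −0.09 (95% interval −0.32 to 0.14; edgeR adjusted p = 0.88), negative in 4 of 6 mice. Klf3, a repressor that recruits CtBP, had a log2 fold change of 0.09 (−0.14 to 0.32; edgeR adjusted p = 0.88), positive in 4 of 6 mice. The SD of the within-mouse differences over the 6 mice was log2 0.33 for Klf5 and 0.24 for Klf3, larger than either fold change.

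Klf9, Klf10 and Klf13 came nearest to the threshold. Klf9, a glucocorticoid-responsive and clock-controlled repressor of keratinocyte proliferation, ranged from 9.86 over 17.6 to 31.1 CPM per kilobase in GFP-HI and from 14.1 over 22.6 to 32.5 in GFP-LO. It was lower in GFP-HI in 5 of 6 mice, with a log2 fold change of −0.25 (95% interval −0.48 to −0.02; edgeR adjusted p = 0.66). Its largest differences were in B1M (log2 −0.60) and B3M (−0.51), and the other mice lay between −0.27 and 0.03. Without B1M and B3M the fitted value was −0.099 (edgeR adjusted p = 0.85). Klf10, first known as a gene induced early by TGF-beta, was higher in GFP-HI in 6 of 6 mice, by log2 0.02 to 0.32. Its ranges were 18.7 over 25.8 to 31.4 CPM per kilobase in GFP-HI and 15.8 over 24.0 to 27.3 in GFP-LO. The fitted log2 fold change was 0.18 (−0.01 to 0.37; edgeR adjusted p = 0.70). Klf13, a relative of Klf9 that recruits Sin3 corepressors, had a log2 fold change of −0.21 (−0.42 to 0.01; edgeR adjusted p = 0.70) and was negative in 4 of 6 mice.

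**Figure D2:**
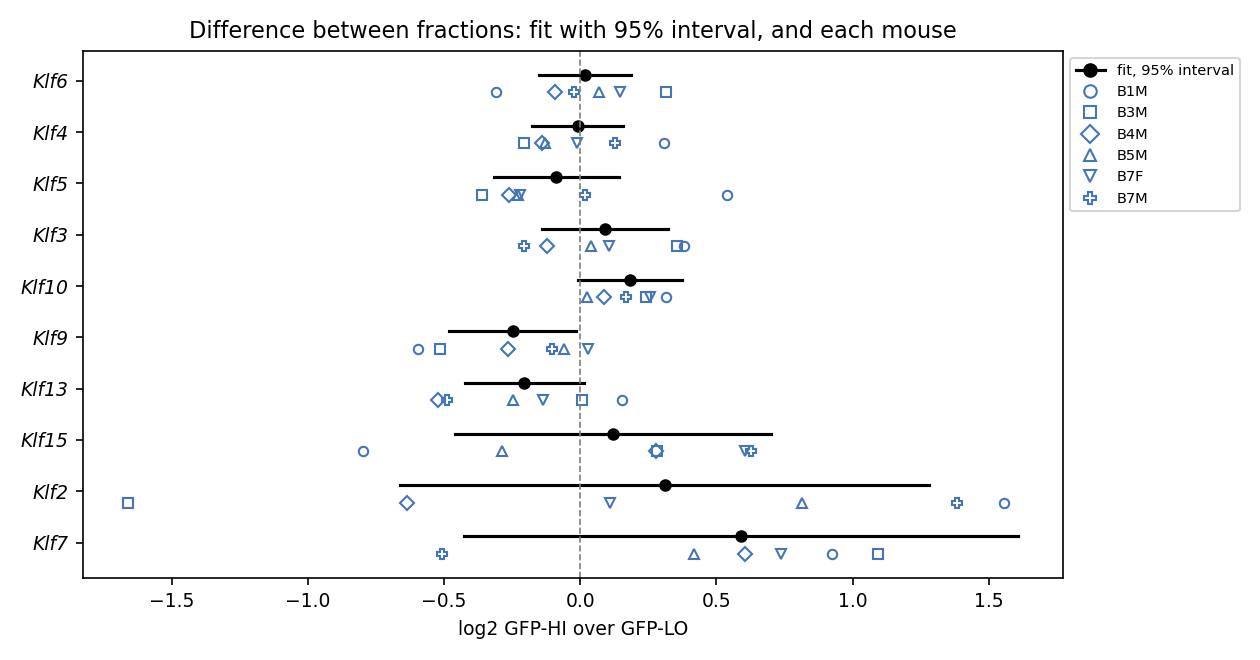
Log2 ratio of GFP-HI to GFP-LO for each Klf gene, with the edgeR fit and its 95% interval in black and the difference within each of the 6 mice as open symbols. The interval includes 0 for 9 of 10 genes and not for Klf9, Klf10 is positive in 6 of 6 mice, and Klf2 spreads from −1.66 to 1.56.

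For the 3 genes of the lowest tier the differences were poorly resolved. Klf2, a factor of quiescent endothelium and lymphocytes, had 12 to 136 counts per library. Its difference ran from −1.66 in B3M to 1.56 in B1M on the log2 CPM scale, and the fit gave 0.31 (95% interval −0.66 to 1.28; edgeR adjusted p = 0.91). Without B1M the fitted value was 0.066, and without B3M it was 0.68. Klf2 was highest in the GFP-HI library of B5M (13.6 CPM), followed by B7M (9.19 CPM) and B1M (8.60 CPM) of the same fraction, and lowest in that of B3M (1.58 CPM). The summed 8 endothelial markers were 6.31, 5.29, 0.368 and 0 CPM in these 4 libraries. Over all libraries they lay between 0 and 6.31 CPM in GFP-HI and between 0.430 and 2.82 CPM in GFP-LO. Of those 8 markers only Pecam1 averaged at least 1 CPM. In the same 4 libraries, melanocyte and Merkel cell markers summed to 26.0, 19.3, 19.4 and 8.53 CPM. Leukocyte markers summed there to 18.3, 1.70, 5.28 and 10.8 CPM, and fibroblast markers to 300, 380, 511 and 391 CPM. Whether other cells contributed to Klf2 was not tested.

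Klf7, a relative of Klf6 best known from neurons, had 12 to 37 counts per library. It was higher in GFP-HI in 5 of 6 mice, with 3.42 ± 0.610 CPM there against 2.42 ± 1.09 CPM in GFP-LO (mean ± SD, n = 6). The log2 fold change of 0.59 had the widest interval of the 10, −0.43 to 1.61 (edgeR adjusted p = 0.82). Klf15, a regulator of metabolism, averaged 9.53 ± 3.52 CPM in the GFP-HI libraries against 9.23 ± 5.26 CPM in GFP-LO, with a log2 fold change of 0.12 (−0.46 to 0.70; edgeR adjusted p = 0.95). Differences within these intervals were not resolved.

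The rest of the family gave no call between the fractions. Of 16 other Klf and Sp genes in the table, 9 were tested and 0 were called, and none had an unadjusted p under 0.05. Sp1 and Sp3, ubiquitous GC-box binding activators, were the most abundant, at 148 ± 16.7 and 144 ± 22.8 CPM in the GFP-HI libraries and at 146 ± 12.7 and 140 ± 13.7 CPM in the others (SD, n = 6). The smallest p belonged to Klf16, which was lower in GFP-HI in 6 of 6 mice (log2 fold change −0.41, edgeR adjusted p = 0.70). Klf1, Klf14, Klf17, Sp5, Sp7, Sp8 and Sp9 did not pass the filter on low counts. Klf1 had the highest mean of these 7, 0.827 CPM in GFP-HI.

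Genes that act with or on Klf proteins were looked at as lists. Of 12 corepressors and coactivators 0 were called; among the most abundant, Crebbp had means of 212 and 225 CPM and Ncor1 of 201 and 216 CPM in GFP-HI and GFP-LO. Of 8 ubiquitin ligases 0 were called, and Wwp1, which targets Klf2 and Klf5 for degradation, had 130 ± 26.3 and 113 ± 14.7 CPM. In the ERK5 and MEF2 pathway, which induces Klf2 and Klf4 in endothelium, 6 of 8 genes were tested and 0 called. Mef2a was at 86.4 and 84.5 CPM, while Mef2c was at 0.513 and 0.720 CPM.

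Upstream signals and differentiation partners also gave few calls. Of 11 glucocorticoid receptor and response genes 0 were called, and Mt1, a metallothionein, had the smallest p (log2 fold change 0.19, edgeR adjusted p = 0.66). Of 12 TGF-beta pathway genes and of 12 tested differentiation regulators 0 were called. Of 16 tested suprabasal and barrier genes 0 were higher and 1 was lower, the calmodulin-like protein gene Calml3 (log2 fold change −0.47, edgeR adjusted p = 0.027, lower in 6 of 6 mice). That call was lost without any one of B3M, B4M, B5M, B7F or B7M. Of 26 immediate early and stress genes 0 were called, with 19 positive and a median log2 fold change of 0.07. In the 8 lists with 0 calls, the other Klf and Sp genes included, DESeq2 and limma-voom also called 0. At an unadjusted p under 0.05 edgeR gave 1 glucocorticoid gene, 4 immediate early or stress genes and none in the other 6 lists. Fosb was higher in GFP-HI in 6 of 6 mice without passing (0.36, edgeR adjusted p = 0.43).

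The third question, raised after the values were seen, was how far Klf levels varied between the mice. The 5 mouse terms of the same model were tested together with edgeR's quasi-likelihood test. Here 5 of the 10 Klf genes were called, where 9.68% of tested genes were called, and the 5 were Klf4, Klf6, Klf9, Klf5 and Klf10. The difference between the highest and the lowest mouse, on the log2 scale, was 1.57 for Klf4 (edgeR adjusted p = 8.5e-05), 1.63 for Klf6 (1.1e-04), 1.42 for Klf9 (0.0035), 0.92 for Klf5 (0.020) and 0.74 for Klf10 (0.028). Its median was 1.17 over the 10 genes and 0.88 over all tested genes. Klf3, Klf15, Klf13, Klf2 and Klf7 were not called (edgeR adjusted p = 0.065, 0.13, 0.20, 0.74 and 0.91). Of the 9 tested other Klf and Sp genes 0 were called by edgeR, DESeq2 or limma-voom, with 1 at an unadjusted p under 0.05 in each; without B1M and B3M edgeR called 1. Whether the members differ from those genes in this respect was not tested.

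For Klf4 and Klf6 both libraries of a mouse moved together. Klf4 was lowest in B3M, at 53.9 CPM per kilobase in GFP-HI and 62.3 in GFP-LO, and highest in B5M, at 165 and 181. Between them lay B7F (79.8 and 80.6), B1M (111 and 89.5), B4M (119 and 132) and B7M (124 and 114). The lowest and highest mice did not overlap, and the fractions of a mouse were closer than these extremes. Both mice were picked as extremes from these same values, so their separation is a description and not a test. The share of all tested genes that separate in this way was not counted. Klf6 was lowest in B3M (65.0 in GFP-HI and 52.2 in GFP-LO) and highest in B5M (186 and 177). Its other 8 libraries lay between 96.8 and 140 CPM per kilobase.

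Klf9 followed with 9.86 and 14.1 CPM per kilobase in B3M and 31.1 and 32.5 in B5M. Mouse B7F was second highest, at 25.4 and 24.9. Klf10 differed in its highest mouse: B7F had 31.4 and 26.3, B7M had 29.9 and 26.6 and B5M had 27.7 and 27.3, while B3M was again lowest at 18.7 and 15.8. Klf5 was lowest in B3M by its mean over both libraries (63.6 and 81.8) and highest in B5M (126 and 148), but in GFP-LO alone B1M, at 77.8, was lower than B3M. Of the 10 genes 8 were lowest in B3M and 7 were highest in B5M by the mean of log2 CPM. These counts include genes that were not called between mice. How many of all tested genes were lowest or highest in these mice was not counted.

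**Figure D3:**
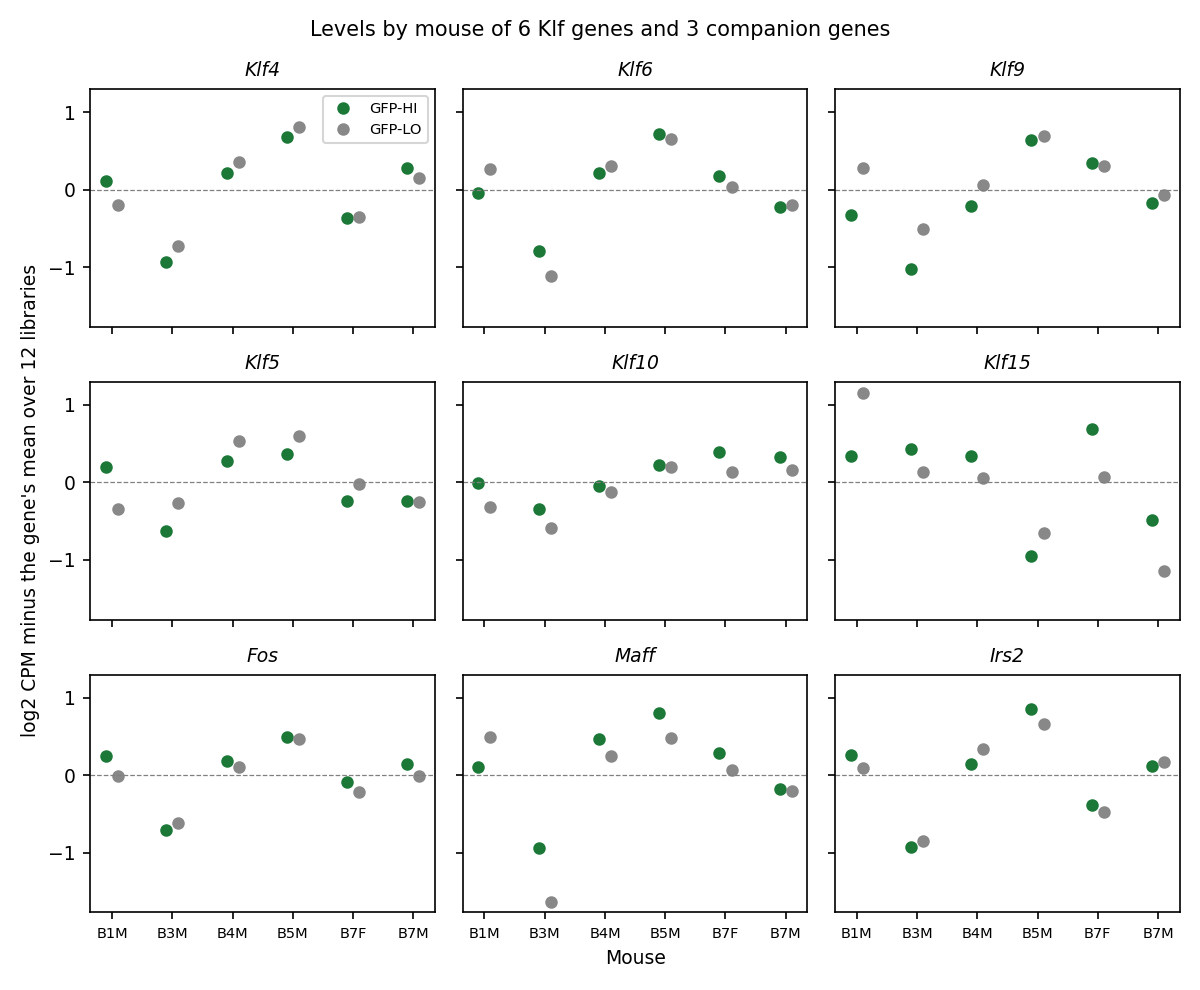
Levels in each mouse of 6 Klf genes and of Fos, Maff and Irs2, as log2 CPM minus the gene's mean over 12 libraries, with GFP-HI in green and GFP-LO in grey. Klf4, Klf6 and Klf9 are lowest in B3M and highest in B5M in both fractions, as are Fos and Irs2, while Klf15 is low in B5M and B7M.

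For 7 of the 10 genes the SD of the mouse means exceeded the SD of the GFP-HI minus GFP-LO differences. This compares 2 spreads and not the size of the fraction difference. A mean of 2 libraries also varies less than their difference, so equal spread is not what no difference between mice would give. The SD of the mouse means divided by the SD of the GFP-HI minus GFP-LO differences, both on the log2 CPM scale, was 2.81 for Klf4, 2.64 for Klf10, 2.56 for Klf6 and 1.88 for Klf9. It was 1.24 for Klf3, 1.13 for Klf15 and 1.11 for Klf5. The ratio was 0.797 for Klf13, 0.595 for Klf7 and 0.446 for Klf2, where counts were low for the last 2.

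**Figure D4:**
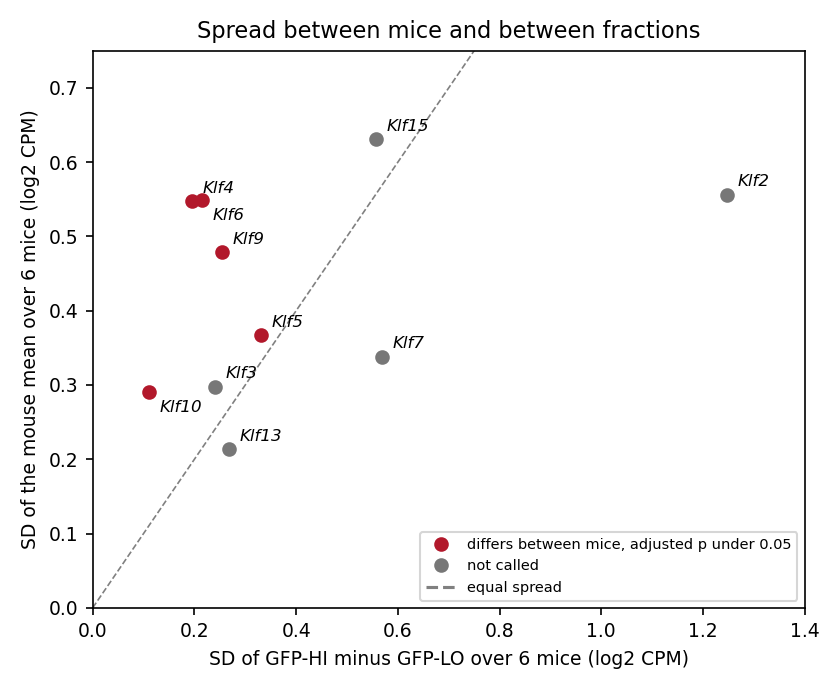
Spread of each Klf gene between mice (SD of the mouse means, y axis) against the spread of its GFP-HI minus GFP-LO difference over the 6 mice (x axis), both in log2 CPM, with the line of equal spread. The 5 genes called between mice, in red, lie above the line, as do Klf3 and Klf15, which were not called. Call and axes come from the same values, and equal spread is not what no difference between mice would give. Klf2 lies far to the right at an SD of 1.25 between mice in its difference.

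The calls of Klf4 and Klf6 held in 14 of 14 alternative analyses. Klf9 held in 13 and was lost without B5M (edgeR adjusted p = 0.053). Klf5 held in 11 and was lost without B3M (0.076), B4M (0.054) or B5M (0.10). Klf10 held in 9 and was lost without B3M, B5M, B7F or B7M, or without B1M and B3M together, with adjusted p between 0.060 and 0.25. Klf3 was called in 5 of 14 alternatives: DESeq2 (adjusted p = 0.011), limma-voom (0.042), no count filter (0.011), without B1M (0.0083) and without B1M and B3M (0.0065). Klf15 was called in 2, by DESeq2 (0.0497) and without B1M and B3M (0.022), and Klf13 in 2, without B1M (0.047) and without B1M and B3M (0.0098). The mouse, its dissection, its sort and its library preparation cannot be told apart here, and the age of B7F cannot be told apart from that animal.

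Immediate early genes, which cells switch on within minutes of stimulation, were listed together with stress genes, heat shock genes included. Tissue dissociation can also induce genes of this list. Members of the list differed between the same mice. Of its 26 genes 18 were called, where 9.68% of all tested genes were called. Of those 18, 16 were lowest in B3M, with 9 highest in B1M and 9 in B5M by mean CPM. Those not lowest in B3M were the heat shock genes Hsp90aa1 and Hspb1. The same shares over all tested genes were not counted. The 26 genes summed to 6583 and 6705 CPM in GFP-HI and GFP-LO of B3M, and to 12823 and 11990 CPM in B5M. The sums were 13374 and 11923 CPM in B1M, and between 9829 and 10412 CPM in the other 6 libraries. The part of these genes in the Klf differences was not tested. Neither was that of the low number of genes detected in B1M and B3M.

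Of 12 genes of TGF-beta signalling 4 were called between mice and 8 were not, where 9.68% of all tested genes were called. Those called included the receptor Tgfbr1, the inhibitor Smad7 and the corepressor Skil (edgeR adjusted p = 0.021, 0.024 and 0.0031), which were lowest in B3M and highest in B5M by mean CPM. Skil ranged from 53.9 CPM in B3M to 127 CPM in B5M. Klf10, itself a TGF-beta target, was lowest in B3M too, but highest in B7F.

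Klf15, not called between mice in the main fit (edgeR adjusted p = 0.13), correlated negatively with the other members. Its level was low in B5M (1.92 and 2.36 CPM per kilobase in GFP-HI and GFP-LO) and in B7M (2.66 and 1.68). The mean was highest in B1M (4.71 and 8.27) through its GFP-LO library, since in GFP-HI both B7F (5.97) and B3M (4.98) were above B1M. Over the 12 libraries its Pearson r with every one of the 9 other Klf genes was negative, from −0.67 with Klf3 and −0.59 with Klf4 to −0.19 with Klf6. Of the 36 pairs without Klf15, 35 had a positive r. These 45 values describe the 12 libraries, which come as pairs from 6 mice and share scaling, so no p is given.

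Glucocorticoid response genes, among which Klf15 and Klf9 are usually counted, gave 8 calls of 11 between mice, where 9.68% of all tested genes were called. Of those 8, 6 were highest in B1M and 5 lowest in B7M by mean CPM. The same shares over all tested genes were not counted. Tsc22d3 (GILZ) had 121 CPM in B1M and 34.9 CPM in B7M (edgeR adjusted p = 5.7e-05), and Per1, also a clock gene, had 101 and 35.1 CPM (0.0012). Klf15 had its highest mean in B1M too and its lowest in B5M and B7M, which differed little, and Klf9 was highest in B5M and lowest in B3M. The receptor gene Nr3c1 was not called (0.13).

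Among the members, the highest correlations were between Klf6 and Klf9 (Pearson r 0.85), Klf4 and Klf5 (0.81), Klf3 and Klf4 (0.81) and Klf4 and Klf6 (0.80), and the median over 45 pairs was 0.46. Against all genes with a mean of at least 5 CPM, 9562 per comparison, the nearest companions of Klf4 were Irs2, an adaptor of insulin signalling (r 0.97), and Fos (0.96). Those of Klf6 were Maff (0.97) and Ndrg1 (0.94), those of Klf9 were Pfkfb3 (0.93) and Tob2 (0.92), and those of Klf10 were Etnk1 (0.95) and Egr3 (0.94). Klf3 was nearest to Setd2 (0.92) and Dennd2c (0.91), and Klf15 to Msra and Ndufb11 (both 0.92). For Klf2 they were Cdk13 (0.89) and B230206H07Rik (0.87), for Klf5 Epha7 and Uck2 (both 0.84), for Klf7 Cebpb (0.87) and Ppm1a (0.82), and for Klf13 Ppp1r13b (0.80) and Wnk2 (0.77). By Spearman's rho 5 of these 20 kept one of the first 2 places.

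In the test between mice 5 of these 20 companions were called and 15 were not, where 9.68% of all tested genes were called. This is a description only, since the companions were chosen by their correlation with the members. Fos, a component of AP-1 and a companion of Klf4, stood at 856 and 915 CPM in B3M, at 1961 and 1941 CPM in B5M, and between 1208 and 1654 CPM in the other 8 libraries. Irs2 was also lowest in B3M (49.8 and 52.6 CPM) and highest in B5M (171 and 149 CPM). Maff, a small Maf factor, was lowest in B3M (21.0 and 13.1 CPM).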

How the data were processed

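The authors deposited 1 table of raw read counts per gene for 12 libraries, with each gene's exons and exonic length. Counting was by featureCounts, per the submitters' processing notes, which also list bcl2fastq 2.20.0, FastQC, R 3.4.1, DESeq2 and, as builds, GRCm38 and mm10. Not given in the sources used here were the aligner, the annotation release and the strand setting, so antisense reads could be counted. The NuGEN SoLo kit was used for the libraries, per the labels' protocols.

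The test was edgeR 4.0.16 in R 4.3.3, with genes filtered by group (minimum count 10, minimum total 15), TMM scaling and a robust quasi-likelihood fit on mouse and fraction, two-sided, adjusted by Benjamini-Hochberg over 11719 genes. Intervals are 95%. limma 3.58.1 and DESeq2 1.42.0 were alternatives. On simulated counts of 11524 genes, edgeR called 45 of 50 raised by log2 2 in GFP-HI and 31 of 50 raised by log2 1. It called 44 of 49 lowered by log2 2, 24 of 50 lowered by log2 1 and 6 of 11325 unchanged genes. The simulated mice did not differ in level, and no change smaller than log2 1 was simulated. Log2 CPM used a prior count of 2. The titles pair the libraries by animal code; each library correlated with its own mouse (r 0.23 to 0.49) more than with any other (at most 0.26). In the test between fractions, p-values are measured against the spread within these 6 animals after the fit. That spread is shared in part across genes, so it is not each gene's own spread alone. In the test between mice the 2 libraries of an animal are its only replicates. Those p-values are measured against the spread within mice, also shared in part across genes.

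The members and lists were chosen with earlier results of these data known. Named genes are the 10 members, of each list the called genes and otherwise up to 3 with the smallest p or the highest CPM, and per member the 2 genes most like it. Klf1, Mef2c, Nr3c1, Fos and the genes called between mice were singled out after their values were seen. The test of the mouse terms was also added then.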

Additional observations from a re-analysis of the deposited data

How the results depend on the processing

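None of the 10 Klf genes was called between fractions under any alternative run; the stricter count filter removed Klf7. Over all genes, the counts called higher and lower in GFP-HI (55 and 7) became 127 and 45 with no count filter, 120 and 23 with DESeq2, 117 and 34 without B1M and B3M, and 0 and 0 with no replicate block; limma-voom called 14 lower. Leaving out single mice gave 29 to 81 higher, with 29 without B3M and 30 without B4M, and 2 to 14 lower. The genes called between mice (1134) became 2338 with no count filter, 2029 with DESeq2 and 1754 without B1M and B3M, and 684 (without B5M) to 1527 (without B1M) when single mice were left out, with 2 (without B5M) to 7 (without B1M) of the 10 Klf genes among them. The cause was not tested, except that the test without the replicate block leaves the differences between mice in its error. Fold changes near 0 changed sign: Klf3 was −0.048 without B1M and B3M, Klf6 −0.0100 with upper-quartile factors and −0.0059 with no replicate block, and without single mice Klf4 lay between −0.071 and 0.033 and Klf6 between −0.039 and 0.084. Klf2 lay between 0.066 and 0.68 without single mice and Klf15 between 0.018 and 0.32. Over all alternative runs, of edgeR, DESeq2 and limma-voom, Klf13 reached −0.35 and its lowest adjusted p was 0.11. Klf5 was −0.21 without B1M (edgeR adjusted p = 0.45). Klf7 had 12 to 37 counts per library, Klf2 12 to 136 and Klf15 32 to 151.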

Other observations

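Suprabasal and barrier genes differed between mice in another order than Klf4, a factor known to act in their programme. Of 16 tested, 11 were called between mice, where 9.68% of all tested genes were called. Of those 11, 6 were lowest in B1M by mean CPM and 5 highest in B4M. The same shares over all tested genes were not counted. Krt6a had 4351 CPM in B4M, and Krt16 had 721 CPM there. Krt13, the keratin of upper mucosal layers, had 1095 CPM in B7F and 164 CPM in B7M. The list summed to 10221 and 7585 CPM in GFP-HI and GFP-LO of B4M, and to 5271 and 5580 CPM in B5M, where Klf4 was highest. Of 12 tested differentiation regulators only Ovol1 was called between mice, with 23.9 CPM in B3M and 76.5 CPM in B1M (edgeR adjusted p = 9.8e-04).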
